A study of Mus musculus with 27 samples.

Results

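The maturation phase of the mouse esophagus was read here by setting the esophageal epithelium of wild-type adults of 8 weeks against whole esophagi of wild-type pups at postnatal day 7 (P7). The members are the 6 of the 27 arrays of the series whose labels give a wild-type animal at one of these ages, 3 arrays for each age. All 6 samples came from C57BL/6J mice without an engineered allele, and each array is labelled as a biological replicate, from individual esophagi according to the methods. Sex is not given. On the X-linked and Y-linked markers read at the end, it cannot be told apart from age. The rest of the series holds younger wild-type esophagi and P7 esophagi that lack Nrf2, Keap1 or both. Of these, Nrf2-/- esophagi at P7 and Nrf2-/- adult epithelium on a C57BL/6J background (3 arrays each) and 2 arrays of Nrf2-/-Keap1-/- esophagi at P7 are used below for comparison.

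The pups' samples hold every layer of the wall and the adults' samples only the epithelium, so age and dissection changed together and cannot be told apart by the design. In such bulk samples, fewer cells of a type and less RNA per cell cannot be told apart either. Each array carried the sample's RNA labelled with Cy5 and a reference RNA, pooled from mouse cell lines, labelled with Cy3. A level is given as the log2 ratio of sample to reference, and a change as the mean of the adult arrays minus the mean of the P7 arrays on that scale, with its standard error (SE). A change of 1 is thus a doubling. Genes with a p of 0.05 or lower in limma's test, after Benjamini-Hochberg adjustment over all tested genes, were called changed, and every p below is adjusted in this way.

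The 6 arrays lay on 3 slides: all P7 arrays on one, adult replicates 1 and 2 on another, and adult replicate 3 on its own with a later version of the image software. Between 58.9% and 65.4% of spots were well above background in Cy5, and none was saturated. Across genes, log2 ratios correlated at 0.893 to 0.942 between P7 arrays, at 0.941 to 0.966 between adult arrays and at 0.600 to 0.699 between the ages (genes are not independent replicates). P7 replicate 2 stood apart from the other P7 arrays, with lower striated muscle genes and higher Afp, Camp and Rbp4. The older software marked 8.83% to 13% of spots as outliers and the later one 0.403%. Marked spots were left out unless a value is said to be with marked spots kept. This choice matters because very bright genes such as the keratins often lost their values.

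Mouse esophageal epithelium is a stratified squamous epithelium. Basal cells, marked by Krt5, Krt14 and Trp63, divide and send daughters upward, where they switch to Krt4 and Krt13, fill with granules of envelope proteins and flatten into a cornified layer. The layers below it hold fibroblasts, vessels, nerves and leukocytes, smooth muscle and, in the mouse, an outer coat of striated muscle along the whole length. Nrf2 is a transcription factor that is held low by Keap1 and drives enzymes that use glutathione, reduce quinones and supply NADPH.

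Of 15474 tested genes, 5774 (37.3%) were called, 2653 (17.1%) higher and 3121 (20.2%) lower in adult epithelium. A change of at least 2-fold was found for 957 of the former and 1510 of the latter. With marked spots kept, 17842 genes were tested and 7653 (42.9%) called, 3559 (19.9%) higher and 4094 (22.9%) lower. With each spot's own local background in place of a cap on extreme ones, 2551 genes were called and 25.6% of them were higher, against 45.9%. Of 113 named genes, 33 then lost their call and 10 turned in sign. Against these shares, 24 lists of 524 marker and pathway genes were read, of which 336 were tested and a further 149 only with marked spots kept. The lists fell into 3 classes. Of 124 tested genes of muscle, stroma, vessels, nerve, blood and neighbouring organs, 72 fell and 6 rose (median change -0.92). Of 105 tested epithelial genes, 58 rose and 9 fell (median 0.91). The median change over all tested genes was 0.0094.

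**Figure D1:**
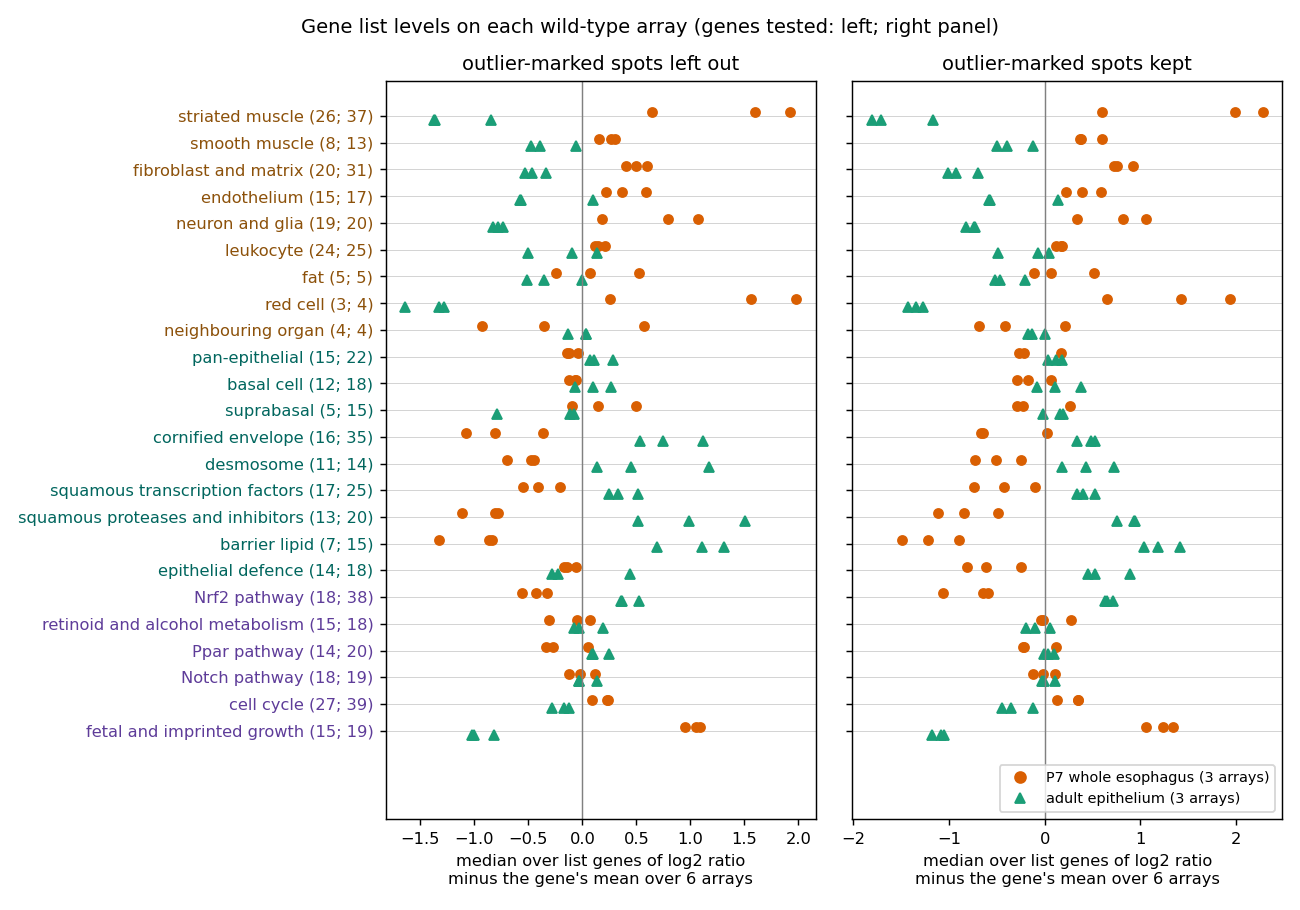
Median over each list's tested genes of the log2 ratio minus that gene's mean over the 6 arrays (x axis, log2), for each list (y axis, number of tested genes in brackets), with one point per array and colour for age. Marked spots are left out in the left panel and kept in the right panel. Striated muscle, nerve and fetal growth lists lay higher on every P7 array, and barrier lipid, protease and Nrf2 lists lay higher on every adult array.

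Striated muscle had the lowest median change of the non-epithelial lists with more than 5 tested genes. Of 26 tested genes, 20 fell and none rose (median -2.59). This became 33 of 37 (median -3.17) with marked spots kept. The list's median on an array, relative to each gene's mean, was 1.60, 0.65 and 1.92 at P7 and -1.37, -0.84 and -1.37 in adults. Myog, the transcription factor of differentiating muscle cells, read 4.45, 4.39 and 4.37 at P7 and -1.33, -0.91 and -1.50 in adults, a change of -5.65 (SE 0.16, adjusted p = 1e-05). The groups did not overlap. Actn2, which anchors thin filaments at the Z disc, changed by -5.33, and the enolase of muscle, Eno3, by -5.12. Acta1, the actin of skeletal muscle, kept 2 of 3 values at P7 (4.35 and 5.78) against 1.23, 2.22 and 0.97 in adults, a change of -3.59 (SE 0.51, adjusted p = 0.0028).

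The ratios of the striated list's members did not move alike, and the values of this paragraph are with marked spots kept. Myh3, the embryonic myosin heavy chain, read 5.58, 6.11 and 5.54 at P7 and was not well above background on any adult array. Tnnt1, the troponin T of slow fibres, changed by -5.74. In contrast, Mb, the myoglobin gene, read 2.99, 1.64 and 3.28 at P7 and 3.10, 3.88 and 2.92 in adults (0.67, SE 0.44, adjusted p = 0.26), so its groups overlapped. Tcap, the cap protein of titin, gave -0.04 (adjusted p = 0.93), Myh4, a fast adult myosin, -1.21 (adjusted p = 0.065), and Mybpc2 of fast fibres -1.07 (adjusted p = 0.079). Those 4 are the ones not called of the 37. Read alone and centred on each array's median, Cy5 changed by -1.6 for Tcap, -3.9 for Myh4, -3.0 for Mybpc2 and 0.4 for Mb. The Cy3 signal of the reference changed by -2.0, -3.2 and -2.4 for Tcap, Myh4 and Mybpc2. Their ratios thus changed by less than their Cy5 signal, and the cause was not tested. In adults 30 of the 37 genes were well above background on all 3 arrays and 5 on none. RNA of striated muscle was therefore still measured in the samples labelled as epithelium, and its part in the changes of other lists was not tested.

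Smooth muscle genes fell less. Of 8 tested genes 4 fell and none rose (median -0.61), and with marked spots kept 8 of 13 fell (median -0.81). Acta2, smooth muscle actin, read 2.48, 2.35 and 2.10 at P7 and 1.21, 1.38 and 1.70 in adults (-0.88, SE 0.17, adjusted p = 0.006). Smtn, a structural protein of contractile cells, changed by -1.08, and Myocd, the cofactor that turns on the contractile genes, by -0.82. Myh11, the smooth muscle myosin and a defining marker, was tested only with marked spots kept. It read 5.36, 5.54 and 5.05 at P7 and 4.83, 5.18 and 5.04 in adults, a difference of -0.30 (SE 0.16, adjusted p = 0.18). The Cy5 and Cy3 signals of Myh11, each read alone, changed by -1.19 and -1.31. All 13 genes were well above background on every adult array. The smooth muscle list thus had measurable RNA throughout in both groups.

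In the fibroblast and matrix list, 14 of 20 tested genes fell and none rose (median -1.01), and with marked spots kept 28 of 31 fell (median -1.74). Col1a1, a chain of type I collagen, read 1.52, 2.29 and 1.84 at P7 and -1.0, -1.58 and -1.27 in adults (-3.17, SE 0.23, adjusted p = 0.00014). Fbn1, the main protein of microfibrils, changed by -2.70 and the small proteoglycan gene Ogn by -2.49. Col5a2 (-3.69), a chain of type V collagen, Mfap5 (-3.59), another microfibril protein, and Fstl1 (-3.56), a secreted glycoprotein, had the largest decreases with marked spots kept, when Thy1, Mmp2 and Fbln1 were the 3 not called. All 31 genes were well above background on every adult array.

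Genes of vessels and nerve fell too. Among endothelial genes, 9 of 15 fell and 1 rose (median -0.79). Cdh5, the cadherin of endothelial junctions, changed by -1.69, the tight junction gene Cldn5 by -1.66 and the transcription factor gene Erg by -1.20. Pecam1, the defining marker, changed by -0.48 (SE 0.15, adjusted p = 0.042). The gene that rose was Flt1, a receptor for VEGF, at 0.35 (adjusted p = 0.049). Leaving out any 1 array ended the call of Flt1 (0.29 to 0.38), and the processed signals of the image software gave -0.09 for Cdh5 and ended its call. In the neuron and glia list 15 of 19 fell and none rose (median -1.67), and 8 of the 19 were not well above background on any adult array, against 3.53% of all tested genes. Vip, a neuropeptide of enteric neurons, read 4.36, 2.96 and 3.99 at P7 and -0.44, -0.03 and -0.37 in adults, where it was not well above background. Its sample signal was at least 10.4-fold lower in adults, a bound taken from the Cy5 channel and open to dye bias. By the same measure Fabp7, the fatty acid binding protein of glia, was at least 17.0-fold lower. Uchl1, a ubiquitin hydrolase of neurons, changed by -2.56. Sox10, the transcription factor of enteric glia, gave -0.46 (adjusted p = 0.088) from 1 probe, and -1.33 (adjusted p = 0.00056) with marked spots kept.

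Leukocyte genes went both ways. Of 24 tested genes 4 rose and 6 fell (median -0.44), shares close to those over all genes. The genes that rose encode antigen presentation: H2-Eb1 by 1.95, H2-Aa by 1.85 and H2-Ab1 by 0.64, together with Cd207, the langerin of Langerhans cells. Cd207 was not well above background at P7 and read 0.98, 1.59 and 2.03 in adults, at least 2.94-fold higher. The largest called decreases were those of the macrophage genes Mrc1 (-2.14), Ms4a7 (-1.72) and C1qb (-1.48). Macrophage genes did not move alike, as C1qa was not called (-1.06, adjusted p = 0.11). With marked spots kept, Cd68 gave 0.10, Lyz2 -0.54, C1qc -0.55, Csf1r -0.73 and Adgre1 -1.43. Ptprc, carried by all leukocytes, gave -0.27 (adjusted p = 0.26). The red cell genes Alas2 (-3.37), Eraf (at least 6.82-fold lower) and Slc4a1 (-1.95) all fell. Of 5 fat genes only Fabp4 was called (-2.69). Among 4 genes of neighbouring organs, Scgb1a1, a secretoglobin of airway club cells, read -0.03, 0.03 and 0.02 at P7 and 3.78, 4.16 and 3.51 in adults, a change of 3.81 (SE 0.17, adjusted p = 2.6e-05).

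**Figure D2:**
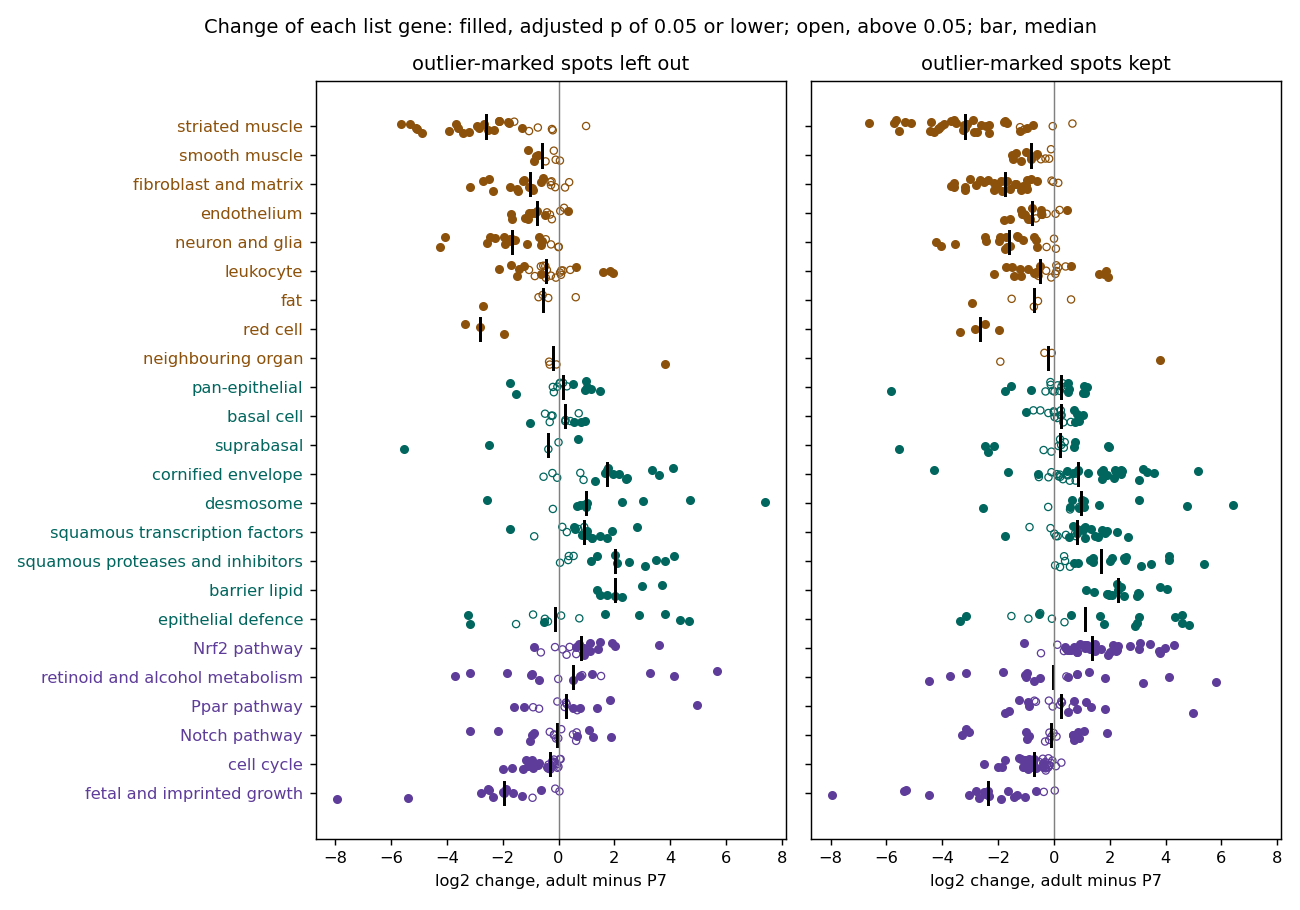
Change of each tested gene (x axis, log2, adult minus P7) by list (y axis), with marked spots left out in the left panel and kept in the right panel. Filled points are genes called at an adjusted p of 0.05 or lower, open points are not called, and bars are list medians. Points of striated muscle spread from near 0 to below -5, and all 7 (left) and 15 (right) barrier lipid genes lay above 0.

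Genes shared by all epithelial cells were read to see how far the ratios of epithelial genes shifted as a whole. Of 15 tested pan-epithelial genes, 6 rose, 2 fell and 7 were not called (median 0.16). Cdh1, the epithelial cadherin, read 6.36, 7.08 and 6.38 at P7 and 6.24, 6.76 and 6.21 in adults, a difference of -0.20 (SE 0.24, adjusted p = 0.54). Cy5 and Cy3 of Cdh1, each read alone with marked spots kept, changed by 0.88 and 0.58. Its near-level ratio was thus not a level sample signal. Centring on these genes uses ratios and takes no account of such Cy3 changes. The members farthest from the list's median were Elf3 (-1.74) and Marveld3 (-1.52) below it and Prom2 (1.47) and Spint2 (1.18) above it. Ehf, an Ets factor like Elf3, changed by 1.01. With each spot's own local background Prom2, Spint2 and Ehf turned to -0.044, -0.022 and -0.75. Epcam, tested only with marked spots kept, changed by -0.81 (adjusted p = 0.0023). The mean of the 13 pan-epithelial genes with values on all arrays was 0.15 higher in adults, and that of the 22 available with marked spots kept was 0.12 lower. The latter included the claudin gene Cldn7 (-5.85), without which the mean of the remaining 21 was 0.15 higher in adults. Relative to the 13 genes, Flt1 (0.20, adjusted p = 0.46), Pecam1 (-0.63, adjusted p = 0.053) and H2-Ab1 (0.49, adjusted p = 0.18) of the lists above were not called.

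Centring each array on the pan-epithelial genes moved the median of all genes to -0.14 and called 4828 genes (31.2%), 1532 (9.90%) higher and 3296 (21.3%) lower. The same centring with marked spots kept moved that median to 0.13 and called 5405 genes (30.3%), 2983 (16.7%) higher and 2422 (13.6%) lower. Without Cldn7 among the centring genes, a setting added after seeing the data, the median was -0.14 with marked spots kept, and 1693 of 5365 called genes were higher. The direction in which most genes lay on this scale was thus turned by 1 centring gene. Values of single genes relative to the 22 genes, given below, rest on the centring that includes Cldn7. The lists read below for differentiation kept medians of the same sign under either centring, except suprabasal genes, whose median was -0.52 with marked spots left out and 0.35 with them kept. Medians of the defence list (-0.32 and 1.25) and the Notch list (-0.20 and 0.034) turned in the same way.

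Of 12 tested basal cell genes, 3 rose and 1 fell (median 0.25), a share called that lay near that of all genes. The hemidesmosome genes Itgb4 and Itga6 changed by 0.95 and 0.80, though Itga6 was not called with marked spots kept (0.34, adjusted p = 0.22). Trp63, the master regulator of stratified epithelia, read 0.48, 0.49 and 0.68 at P7 and 1.16, 0.93 and 1.24 in adults (0.56, SE 0.13, adjusted p = 0.015), but it was not called relative to pan-epithelial genes (0.41, adjusted p = 0.12) and turned to -0.19 with each spot's own local background. Pdpn, a membrane protein that basal cells share with lymphatic vessels, fell by 1.01. The remaining markers were tested only with marked spots kept. Krt5 read 3.38, 3.99 and 3.47 at P7 and 3.54, 3.54 and 4.12 in adults (0.12, SE 0.23, adjusted p = 0.71). Krt14 gave 0.61 (SE 0.31, adjusted p = 0.15), and 0.73 (adjusted p = 0.042) relative to the 22 pan-epithelial genes, Cldn7 included. Both keratins overlapped between the ages. Sox2, a transcription factor of foregut epithelium, changed by 1.04 (SE 0.23, adjusted p = 0.0099).

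Suprabasal genes split by gene. Krt4, with marked spots kept, read 5.72, 6.16 and 5.80 at P7 and 5.50, 6.22 and 6.45 in adults (0.16, SE 0.26, adjusted p = 0.64). Krt13, also with marked spots kept, read 4.53, 5.16 and 4.25 at P7 and 5.27, 5.47 and 5.46 in adults (0.75, SE 0.23, adjusted p = 0.032), so that only the latter keratin was called. Cy5 and Cy3, each read alone, changed by 2.34 and 1.64 for Krt4 and by 2.29 and 1.01 for Krt13. Sbsn (1.96) and Dmkn (1.94), secreted proteins of the upper layers, rose with marked spots kept. Cnfn, an envelope protein, rose by 0.71, but was not called relative to pan-epithelial genes (0.56, adjusted p = 0.053). Krt16, a keratin of fast renewing and wounded epithelium, fell from 4.54, 4.87 and 4.33 to 2.23, 2.04 and 2.03 (-2.48, SE 0.16, adjusted p = 8.5e-05). Krt6b, a partner of Krt16, changed by -2.37 and Anxa1 by -2.16 with marked spots kept. Probes of Krt6b may share signal with the near-identical Krt6a, which gave -0.37 (adjusted p = 0.18). Cy5 alone changed by -4.82 for Krt6a and -3.94 for Krt6b, and Cy3 alone by -5.08 and -2.49. The near-level ratio of Krt6a was thus not a level sample signal. Mal, a proteolipid of apical membrane sorting, fell from 5.45, 5.92 and 5.33 to 0.09, -0.06 and 0.00, a change of -5.55 (SE 0.17, adjusted p = 1.2e-05).

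**Figure D3:**
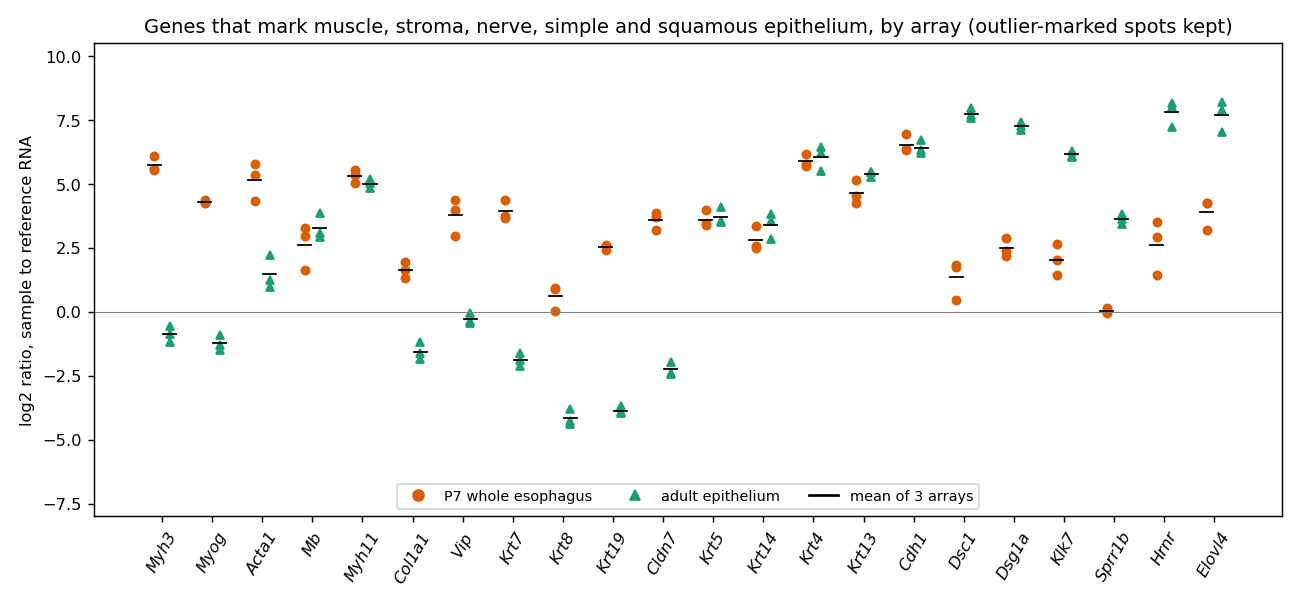
Log2 ratio of sample to reference (y axis) on each of the 6 arrays for 22 genes (x axis), with marked spots kept, circles for P7, triangles for adults and bars for group means. Myh3, Myog, Acta1, Col1a1, Vip, Krt7, Krt8, Krt19 and Cldn7 lay lower on every adult array, Mb, Cdh1, Krt4 and Krt5 overlapped between the ages, and the genes from Dsc1 to Elovl4 lay higher on every adult array.

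Keratins of simple epithelium, chosen after their values were seen and read with marked spots kept, were far lower in adults. Krt7 read 3.76, 4.39 and 3.69 at P7 and -2.13, -1.60 and -1.89 in adults. Krt19 read 2.57, 2.60 and 2.43 at P7 and -3.92, -3.69 and -3.96 in adults, a change of -6.39. Krt8 changed by -4.77 and the claudin gene Cldn7 by -5.85. Krt18, the partner of Krt8, gave -1.55 (adjusted p = 0.056, and 0.030 relative to the 22 pan-epithelial genes, Cldn7 included). The largest decrease of any tested gene, with marked spots left out or kept, was that of Upk1b, a plaque protein of urothelium and other simple or transitional epithelia. Upk1b read 6.15, 7.30 and 6.69 at P7 and -2.0, -1.30 and -2.53 in adults, where it was not well above background (-8.66, SE 0.37, adjusted p = 2.4e-05). Its sample signal was at least 350-fold lower in adults.

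Among genes of the cornified envelope, 11 of 16 tested rose and none fell (median 1.75). These became 20 of 35 and 3 (median 0.86) with marked spots kept. Hrnr, a filaggrin-like protein of keratohyalin granules, read 4.62, 4.09 and 2.30 at P7 and 8.22 and 7.31 on the 2 adult arrays with a value (4.09, SE 0.67, adjusted p = 0.0048). The processed signals of the image software gave 0.26 for Hrnr and ended its call. Sprr1b, a small proline-rich crosslinker, was not well above background at P7 and read 3.43, 3.62 and 3.83 in adults (3.58, SE 0.14, adjusted p = 1.9e-05). Lce1g, a late envelope protein, changed by 3.33. Ivl, the early envelope precursor, rose by 1.74, and Kprp and Flg, tested with marked spots kept, by 3.06 and 2.42.

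Other envelope genes were already high at P7, read here with marked spots kept. Lor, the bulk protein of the envelope, read 6.79, 7.41 and 6.68 at P7 and 7.24, 7.19 and 7.08 in adults (0.21, SE 0.20, adjusted p = 0.42). Sprr1a gave -0.09 (adjusted p = 0.74), and the crosslinking enzyme Tgm3 gave 0.50 (adjusted p = 0.16). The 3 that fell were Sprr2f (-4.28), Sprr2d (-1.66) and Sprr2b (-0.57), members of one family whose probes may share signal. Sprr2b was not called relative to the 22 pan-epithelial genes, Cldn7 included (-0.44, adjusted p = 0.18). The Cy5 signal alone changed by 1.87 for Lor, 0.75 for Sprr1a and 2.62 for Tgm3. That of Cy3, the reference, changed by 1.05, 0.30 and 1.80, and the cause was not tested. On the scale of the ratio, envelope genes thus included some that rose, some that were not called and some that fell.

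Cell adhesion, proteolysis and barrier lipids moved largely one way. Of 11 tested desmosome genes 8 rose and 1 fell (median 0.98). Dsc1, the desmocollin of the uppermost layers, read 2.01, 2.19 and 0.32 at P7 and 9.13 and 8.65 on the 2 adult arrays with a value (7.38, SE 0.55, adjusted p = 0.00028). With marked spots kept it changed by 6.40, the mean over 2 probes that changed by 5.57 and 7.23. Dsg1a, its partner desmoglein, changed by 4.69 and Dsg1b by 3.03. Pkp2, a plakophilin of simple epithelia and heart, fell by 2.55. Of 13 tested squamous proteases and inhibitors 9 rose and none fell (median 2.01). Klk14, a kallikrein that cleaves desmosomal proteins at shedding, read 0.79, 1.04 and 0.73 at P7 and 5.12, 5.15 and 4.70 in adults (4.14, SE 0.16, adjusted p = 1.9e-05). Serpinb12 changed by 3.80 from 1 probe. With marked spots kept it changed by 2.57, the mean over 2 probes that changed by 1.34 and 3.80. Klk5 changed by 3.49. Serpinb3c changed by 4.83, but members of its family may share probe signal.

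All 7 tested barrier lipid genes rose (median 2.02), and with marked spots kept all 15 rose (median 2.28). Lipk, a lipase of the upper epidermis, read 1.66, 1.86 and 1.76 at P7 and 5.81 and 5.10 on the 2 adult arrays with a value (3.70, SE 0.23, adjusted p = 0.00014). Lipm, a related lipase, changed by 2.99 (0.51 and not called from the processed signals) and Ugcg, which makes glucosylceramide, by 2.27. Elovl4, which elongates very long fatty acids, rose by 3.81, the ceramide transporter gene Abca12 by 3.04 and the lipoxygenase gene Aloxe3 by 3.03, all with marked spots kept. Of 17 tested squamous transcription factors 10 rose and 1 fell (median 0.92). Ovol1 changed by 2.80, Tfap2c by 1.90 and Barx2 by 1.75, and with marked spots kept Grhl1 rose by 2.26, Pax9 by 1.84 and Klf4 by 1.71. Tfap2c and Barx2 turned to -0.24 and -0.17 when each spot's own local background was used.

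Relative to pan-epithelial genes, the same lists gave 11 of 16 higher for the cornified envelope, 7 of 11 for desmosomes, 9 of 17 for transcription factors, 9 of 13 for proteases and 7 of 7 for barrier lipids. Against the 9.90% of all genes called higher on this scale, these shares were larger. Defence genes were split. Of 14 tested, 5 rose and 3 fell (median -0.14), and with marked spots kept 10 of 18 rose and 3 fell (median 1.13). The interleukin-36 genes Il1f8 and Il1f9 changed by 4.67 and 3.81 and the antimicrobial S100a7a by 4.35, and Defb3, a beta-defensin, by 4.58 with marked spots kept. Muc4, a membrane mucin, read 2.96, 3.46 and 3.16 at P7 and -0.07, -0.09 and -0.02 in adults (-3.25, SE 0.15, adjusted p = 2.6e-05). Camp, the cathelicidin of neutrophil granules, read 5.08 on P7 replicate 2 and 1.20 and 1.81 on the other P7 arrays, and was at least 7.85-fold lower in adults. Its call was lost when any adult array was left out (-3.06 to -3.29).

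Genes of the Nrf2 pathway rose together. Of 18 tested 11 rose and 1 fell (median 0.82), and with marked spots kept 32 of 38 rose and 1 fell (median 1.36). The antioxidant response element, to which Nrf2 binds with small Maf proteins, has the core TGACNNNGC (N is any base). On either strand of the window from 250 bases before to 50 bases after the start site, the core was found in 13 of 32 list genes with a promoter sequence (40.6%) and in 3781 of 27025 genes overall (14.0%). Not every list gene with a core rose, as Gsta3 gave -0.46 and Ugdh 0.12 with marked spots kept. Abcc4 held another core, not shown, at another start site. The following windows of 27 bases are shown because their genes rose with marked spots kept. They are RefSeq promoter sequences of build GRCm38.p6, 5′ to 3′ on the strand given, with the core in capitals. Cores that read TGACTCA overlap the site of AP-1 factors, and a match is a description of the letters only.
Mt2, chr8:94172530-94172556, plus strand: aagggggtgTGACTCAGCgcggggggt
Prdx1, chr4:116685457-116685483, minus strand: tacgggggaTGACTCAGCgctttccct
Nfe2l2, chr2:75704886-75704912, minus strand: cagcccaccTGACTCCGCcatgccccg
Gclm, chr3:122245414-122245440, minus strand: cgtgagagtTGACGGTGCgcccgggag
G6pdx, chrX:74428920-74428946, plus strand: cgtgtgcttTGACTGAGCtgacccgcc
Abcc4, chr14:118706227-118706253, plus strand: ggcccgcccTGACCCCGCctctcgggg

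Among these, Gclm, the modifier subunit of the enzyme that starts glutathione synthesis, read -0.60, -0.47 and -0.76 at P7 and 1.28, 1.09 and 1.58 in adults (1.93, SE 0.16, adjusted p = 0.00021). Mt2, a metallothionein that binds zinc, rose by 3.05 with marked spots kept, and G6pdx, the entry enzyme of the pentose phosphate pathway and a source of NADPH, by 2.27. The transporter gene Abcc4 rose by 1.13 and Prdx1, a peroxide-reducing enzyme, by 0.54, both with marked spots kept. Each of the 6 genes had separate P7 and adult arrays with marked spots kept.

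The glutathione transferase gene Gstm1 read -0.82, -1.35 and -1.29 at P7 and 2.32 and 2.56 on the 2 adult arrays with a value (3.59, SE 0.20, adjusted p = 0.00011). Slc7a11, the cystine importer, was at least 3.96-fold higher in adults, and Gsr, which reduces oxidised glutathione, was the member that fell (-0.90). With marked spots kept, Nqo1, a quinone reductase often used to read Nrf2 activity, read 0.45, -1.06 and -1.96 at P7 and 2.85, 2.78 and 2.18 in adults (3.46, SE 0.55, adjusted p = 0.0023). Gstm3 rose by 4.0 and Hmox1, heme oxygenase, by 3.82, also with marked spots kept. Aldh3a1, an aldehyde dehydrogenase, was not well above background at P7 and read 3.33, 3.77 and 3.74 in adults with marked spots kept, a change of 4.30 (SE 0.18, adjusted p = 1e-05). The gene of the sensor, Keap1, gave 0.40 (SE 0.28, adjusted p = 0.31). Nfe2l2, which encodes Nrf2, gave 0.14 (SE 0.17, adjusted p = 0.54) from the 1 of 4 probes with values left, and 1.44 (SE 0.19, adjusted p = 0.00091) with marked spots kept, when the other 3 probes changed by 1.68 to 2.06. The call for Nfe2l2 in wild type thus rested on spots that the image software had marked. In Nrf2-/- mice Nfe2l2 also rose, by 1.09 (adjusted p = 0.0033) with marked spots left out. What its probes read in those mice was not tested.

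Retinoid, Ppar and Notch genes went both ways. Of 15 tested retinoid and alcohol genes 6 rose and 6 fell (median 0.52, and -0.017 with marked spots kept). Adh7, the stomach and esophagus alcohol dehydrogenase that also oxidises retinol, read 0.04, 1.06 and -0.01 at P7 and 6.14 and 5.97 on the 2 adult arrays with a value (5.69, SE 0.33, adjusted p = 0.00013). Crabp2, the retinoic acid carrier, changed by 4.13 and Cyp26b1, which degrades retinoic acid, by 3.26. Of the enzymes that make retinoic acid, Aldh1a3 fell by 3.73 and Aldh1a2 by 1.83, while Aldh1a1 gave 1.52 (adjusted p = 0.059) and rose by 1.85 with marked spots kept. The plasma retinol carrier Rbp4 changed by -3.16. In the Ppar list 5 of 14 rose and 2 fell (median 0.28). Fabp5, the squamous fatty acid carrier, changed by 4.95, Ppara by 1.83 and the fatty acid activating enzyme Acsl1 by 1.37. Ppargc1a, a coactivator abundant in muscle and fat, changed by -1.59, the fatty acid receptor Cd36 by -1.25, and Ppard gave 0.29 (adjusted p = 0.18).

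In the Notch list 4 of 18 rose and 5 fell (median -0.05), shares close to those over all genes. Those that rose were Nrarp, a feedback regulator (1.89), the receptor genes Notch2 (1.23) and Notch1 (0.66), and the ligand gene Dll1 (1.09). Hey1 (-3.19) and Heyl (-2.18), repressors active in vessels and muscle, fell, as did Rbpj (-1.01), the DNA-binding partner of Notch. Notch4, a receptor of endothelium, changed by -3.04 with marked spots kept. Nrarp, Dll1 and Notch1 turned to -0.59, -0.43 and -0.22 when each spot's own local background was used.

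Cell cycle genes fell in part. Of 27 tested 12 fell and none rose (median -0.31), and with marked spots kept 23 of 39 fell (median -0.73). Mcm2, a subunit of the replicative helicase, read -1.16, -1.07 and -1.26 at P7 and -3.28, -2.97 and -3.21 in adults (-1.99, SE 0.13, adjusted p = 8.4e-05). Mcm3 changed by -1.67, the G1/S cyclin Ccne2 by -1.26 and Mcm6, with marked spots kept, by -2.49. Mki67, the proliferation marker, gave -0.23 (adjusted p = 0.34) from 2 values per group and -0.73 (adjusted p = 0.03) with marked spots kept. It was not called relative to the 22 pan-epithelial genes, Cldn7 included (-0.61, adjusted p = 0.096). The mitotic genes Top2a and Cdk1 gave -0.10 (adjusted p = 0.59) and -0.20 (adjusted p = 0.20).

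Genes of fetal and imprinted growth fell in 12 of 15 cases, with none higher (median -1.95). Igf2, the fetal growth factor, read 4.55, 4.60 and 4.54 at P7 and -1.10, -0.84 and -0.60 in adults (-5.41, SE 0.15, adjusted p = 1e-05). Its imprinted neighbour H19 changed by -1.95, and Mest, an imprinted hydrolase gene, read 6.50, 5.71 and 6.35 at P7 and -1.86, -1.36 and -2.03 in adults (-7.94, SE 0.25, adjusted p = 1.2e-05). Igf2bp3, which binds Igf2 mRNA, was at least 6.36-fold lower. The growth inhibitor Cdkn1c (-4.46) and the Notch ligand relative Dlk1 (-5.30) fell with marked spots kept. Igf2, Mest and H19 each had adult arrays wholly below the P7 arrays.

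With marked spots left out, the largest increase was that of Ada, adenosine deaminase, which read -1.77, -1.53 and -1.76 at P7 and 6.32 and 6.44 on the 2 adult arrays with a value (8.07, SE 0.15, adjusted p = 1e-05). It was followed by Dsc1, then Slc6a19, a transporter of neutral amino acids (5.70), Adh7, the carboxylesterase gene Ces1f (5.01), Fabp5, Ly6m (4.94), Serpinb3c, Dynap (at least 26.5-fold higher) and Aadacl2fm1 (at least 23.5-fold higher). After Upk1b, the largest decreases with marked spots left out were those of Afp, Mest, Atp1b4, Myog, Shisa3, Mal, Slc6a14, Igf2 and Lgi2. Afp, alpha-fetoprotein of fetal liver and yolk sac, read 2.88, 6.18 and 2.90 at P7 and was at least 230-fold lower in adults. Atp1b4, a protein of perinatal muscle, was at least 56.1-fold lower, Shisa3 at least 48.1-fold lower, and the amino acid transporter gene Slc6a14 changed by -5.55 and Lgi2 by -5.39.

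The Cy3 signal of the reference RNA was also read alone, centred on each array's median and with marked spots kept. For the 56 genes whose ratio was at least 4 log2 units higher in adults, the median Cy3 difference was 0.75 and its sign followed the sample in 91.1%. For the 96 genes at least 4 units lower it was -0.44, with 85.4% following. Among genes whose ratio rose or fell by less than 1 unit the sign followed in 44.8% and 56.1%, with medians of -0.021 and -0.023. These groups were formed on the ratio, so genes whose Cy5 and Cy3 changed alike also fall among the small changes. Examples picked after their values were seen are Lce1a1 (Cy5 5.84, Cy3 5.26, ratio 0.11), Krt6a (-4.82, -5.08, -0.37) and Krt4 (2.34, 1.64, 0.16). A small change of the ratio alone thus did not show a level sample signal. The Cy3 difference was -4.44 for Myh3 (change of the ratio -6.61), 2.63 for Sprr1b, 2.92 for Aldh3a1 and -1.19 for Igf2. For such genes the ratio changed by less than the Cy5 signal, which gave -9.61 for Myh3, 4.85 for Sprr1b, 6.12 for Aldh3a1 and -6.08 for Igf2. The cause was not tested.

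Nrf2-/- mice gave the same comparison on 6 other arrays, with P7 and adult samples on separate slides and the adults read with the later software, so that age and slide cannot be told apart there. Of 16358 tested genes 8600 (52.6%) were called, 4486 (27.4%) higher and 4114 (25.1%) lower in adults. Among 14781 genes tested in both genotypes, 4642 were called in both, which is 84.5% of the 5495 wild-type calls and 60.3% of the 7699 Nrf2-/- calls. Of the shared calls 4630 had the same sign. With marked spots kept, the list medians in Nrf2-/- were -2.53 for striated muscle (34 of 37 lower), -1.44 for fibroblasts (28 of 31 lower), 2.48 for barrier lipids (15 of 15 higher) and 2.38 for proteases (17 of 20 higher). Over all genes of that fit 27.9% were higher and 28.5% lower.

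**Figure D4:**
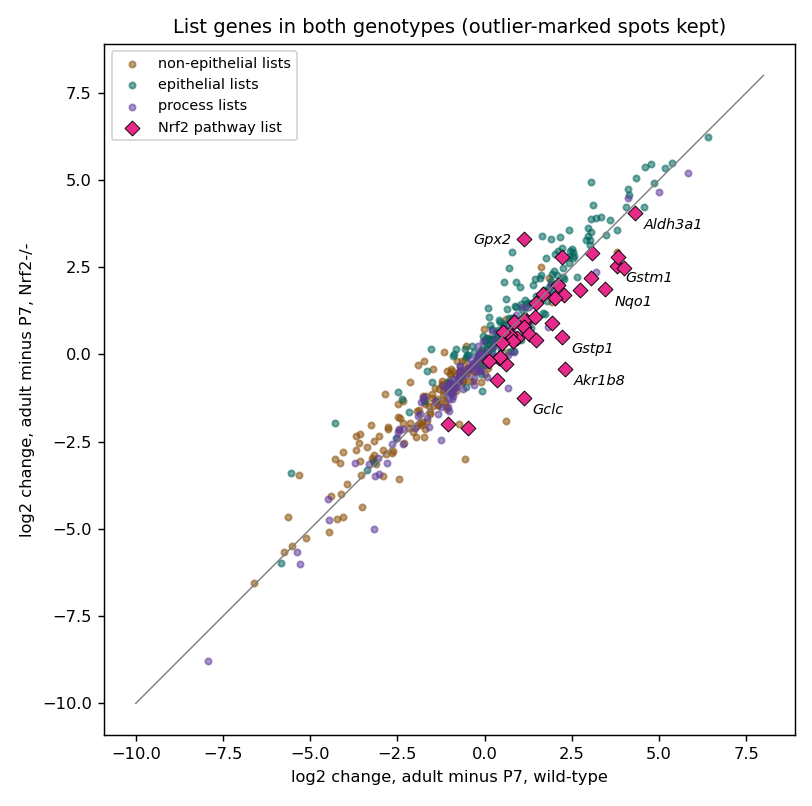
Change from P7 to adult in Nrf2-/- (y axis, log2) against that in wild type (x axis, log2) for each list gene with marked spots kept, with diamonds for the Nrf2 list and a line of equal change. Most genes lay near the line, and Gstp1 and Akr1b8 lay below it, with changes of 2.22 and 2.31 in wild type and 0.50 and -0.41 in Nrf2-/-.

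Whether the change differed between the genotypes was tested as an interaction over all 12 arrays. With marked spots left out 3 of 16326 genes were called (0.0184%), against 1865 at an unadjusted p under 0.05. They were Olah, Tmem252 and the clone AV030849, none of them in a list. With marked spots kept 19 of 19191 were called (0.0990%). Of these, 2 belong to the Nrf2 list. Gstp1, a glutathione transferase, rose by 2.22 in wild type and gave 0.50 in Nrf2-/-, a difference of 1.73 (adjusted p = 0.0022). Akr1b8, an aldo-keto reductase, rose by 2.31 in wild type and gave -0.41 in Nrf2-/-, a difference of 2.71 (adjusted p = 0.0027). The remaining Nrf2 list genes were not called in that test. The list's median difference, wild type minus Nrf2-/-, was 0.49, against -0.013 over all genes. In Nrf2-/- adults 27 of the list's 38 genes were still higher and 3 lower (median 0.93), against 27.9% and 28.5% of all genes. Nqo1 changed by 1.87 there against 3.46 in wild type and Aldh3a1 by 4.07 against 4.30. Gclc, the catalytic subunit beside Gclm, gave -1.24 against 1.12 (adjusted p of the difference 0.221) and Gpx2 3.32 against 1.12 (adjusted p of the difference 0.178). Cy5 and Cy3 of Gpx2, each read alone in wild type, changed by 5.04 and 3.52. Its wild-type ratio thus changed by less than its sample signal. The colours were not read alone in Nrf2-/-.

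Because no wild-type P7 array shared a slide with an adult array, adult replicates 1 and 2 were also set against the 2 Nrf2-/-Keap1-/- P7 arrays on their slide, a comparison chosen after seeing the data in which genotype differs too. Of 13250 tested genes 4791 (36.2%) were called, 2324 (17.5%) higher and 2467 (18.6%) lower in adults. The medians were -2.86 for striated muscle (12 of 14 lower), -1.04 for fibroblasts (14 of 19 lower), -1.75 for neuron and glia (10 of 12 lower), 1.57 for the cornified envelope (6 of 7 higher), 1.72 for proteases (6 of 10 higher) and 1.88 for barrier lipids (3 of 3 higher). The Nrf2 list gave 0.67 (7 of 11 higher) and fetal growth genes -1.86 (7 of 10 lower). Cell cycle genes gave 0.01, with 7 of 25 lower and 1 higher.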

How the data were processed

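Expression was measured on 2-colour Agilent arrays. The deposited scanner files give, per spot and colour, mean intensity and local background before subtraction, and the authors' log10 ratios beside them equalled those of Agilent Feature Extraction within 0.005. The submitters' processing notes name Feature Extraction 9.1, and the file headers versions 10.5.1.1 and 10.7.3.1. The methods describe filtering and collapsing in an institutional database and SAM, which was not run here. No dyes were swapped.

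Intensities were corrected by normexp (offset 50) and normalized by loess within arrays. Control spots, outlier-marked spots and spots with a local background over 5 times their array's median were left out. Probes of a gene with values on all arrays were averaged. Otherwise the probe with most values was used. Genes entered a test if any probe was well above background in Cy5 on 3 or more of its arrays and each group had at least 2 values. Of those tested, 1329 had only 2 in a group. Probes were named by RefSeq accession (55.7%), symbol (16.2%), synonym (7.55%) or the array's own name (20.5%). Tests were run in R 4.3.3 with limma 3.58.1 (statmod 1.5.0 and the package data.table, version 1.17.8, beside it) and Benjamini-Hochberg adjustment, and were tested on simulated data. Wild-type and Nrf2-/- were fitted on 6 arrays each and their difference on 12. The number of arrays limits the precision. A fold given as "at least" compares Cy5 signals with the lowest signal well above background.

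Members, lists and tests were chosen with earlier results of these data known. Named are the 10 largest changes each way among called genes whose arrays do not overlap, up to 3 called genes each way per list, defining markers, and pathway regulators. Other genes were chosen after their values were seen. Alternatives were Feature Extraction's processed signals, each spot's own background, median centring, marked spots kept, pan-epithelial centring, slide or replicate number as a block, a 2-fold minimum, another probe rule or filter, and each array left out. Replicate numbers did not pair the samples. Slide as a random block gave a correlation of -0.00309. As no slide held both ages in wild type, this correlation cannot show a slide effect between the ages. Software version as a block equals leaving out adult replicate 3 and was not run separately. Columns of the authors' comparisons were not used.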

Additional observations from a re-analysis of the deposited data

Results flagged for a closer look

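The change from P7 to adult differed between wild type and Nrf2-/- in the test of the difference for 3 genes outside the lists. Olah, a thioesterase gene, gave 0.33 in wild type and 2.32 in Nrf2-/- (difference -1.99, adjusted p = 0.0035). Tmem252, a membrane protein gene, gave 0.23 and 1.94 (difference -1.70, adjusted p = 0.019). The clone AV030849 differed by 1.76 (adjusted p = 0.0078). Adults of the genotypes shared no slide, so genotype and slide cannot be told apart.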

How the results depend on the processing

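The 5774 genes called in wild type became 2551 with each spot's own local background, 3141 with median centring in place of loess and 2467 at a 2-fold minimum, and 3994 to 5659 with 1 array left out. The share higher, 45.9% of the calls, was 31.7% with pan-epithelial centring, 54.3% with the processed signals, which moved the median of all genes to 0.17, and 53.2% of 7739 calls with the deposited ratios. Relative to pan-epithelial genes, median centring called 3171 in place of 4828, and leaving out 1 array 3313 to 5818. In Nrf2-/- 6814 to 8717 were called with 1 array left out. For the difference between genotypes 19 were called with marked spots kept, 32 with median centring, 1 with the replicate block, and 1 to 13 with 1 array left out. Replicate numbers did not pair the samples (correlations of deviations -0.09, -0.09 and -0.02). The replicate block called 4680 genes in wild type, 4133 relative to pan-epithelial genes and 8040 in Nrf2-/-, and ended the calls of 3 of 113 named genes.

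With the processed signals, list medians were -3.27 for striated muscle, -0.84 for smooth muscle, -1.26 for fibroblasts, -0.20 for endothelium, -2.41 for neuron and glia, -1.30 for fat, -2.08 for red cells, 0.47 for pan-epithelial, 0.37 for basal and 0.030 for suprabasal genes, 1.11 for the cornified envelope, 1.16 for transcription factors, 1.05 for proteases, 1.62 for barrier lipids, 0.19 for defence, 1.15 for Nrf2, 0.77 for retinoid, 0.59 for Ppar, 0.078 for Notch, -0.44 for cell cycle and -2.70 for fetal genes. With median centring they were -1.98 for striated and -0.34 for smooth muscle, -0.87 for fibroblasts, -0.40 for endothelium, -1.29 for neuron and glia, -1.87 for red cells, 0.10 for suprabasal genes, 1.40 for the envelope, 0.72 for transcription factors, 1.22 for proteases, 1.51 for barrier lipids and -1.52 for fetal genes. With marked spots kept they were -3.17, -0.81 and -1.74 for striated muscle, smooth muscle and fibroblasts, 0.22 for suprabasal genes, 0.86 for the envelope, 1.13 for defence, 1.36 for Nrf2, -0.017 for retinoid, -0.73 for cell cycle and -2.34 for fetal genes.

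With 1 array left out, medians ran from -0.78 to -0.41 for smooth muscle, -1.23 to -0.87 for fibroblasts, -1.94 to -1.31 for neuron and glia, -0.54 to -0.15 for leukocytes, -0.34 to 0.57 for neighbouring organs, -1.46 to -0.21 for suprabasal genes, 0.66 to 1.00 for transcription factors, 1.70 to 2.42 for proteases, -0.50 to 0.30 for defence, 0.66 to 0.87 for Nrf2, -0.36 to 0.42 for retinoid, 0.12 to 0.46 for Ppar, -0.18 to -0.020 for Notch and -2.15 to -1.81 for fetal genes. The lists for striated muscle, fibroblasts, neuron and glia, cornified envelope, proteases, barrier lipids, Nrf2 and fetal growth kept their sign under these alternatives. List medians were not taken with each spot's own local background, the deposited ratios or the blocks.

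With each spot's own local background 10 named genes turned: Tfap2c -0.24, Barx2 -0.17, Nrarp -0.59, Dll1 -0.43, Prom2 -0.044, Spint2 -0.022, Ehf -0.75, Trp63 -0.19, Tslp 0.56 and Notch1 -0.22. The cause was not tested. Of the named genes that could be fitted, 2 (without P7 replicate 2) to 11 (without adult replicate 1) lost their call with 1 array left out. A decrease to background is measured only as a bound, and 546 of the tested genes (3.53%) were not well above background on any adult array.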

Other observations

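Further genes, chosen after their values were seen and read with marked spots kept, include Nmu, a neuropeptide gene, which read 0.78, 0.06 and 0.24 at P7 and 6.91, 6.89 and 5.93 in adults. Serpinb13, a protease inhibitor of squamous epithelium, changed by 6.43, the plasma protein gene Fetub by 6.15 and the beta-defensin gene Defb6 by 5.81. Ltf, lactoferrin, read 5.92, 6.29 and 5.60 at P7 and 0.23, 0.22 and 0.16 in adults. Ppbp, a platelet chemokine gene, was at least 119-fold lower in adults.

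Genes best known from liver were high at P7, most of all on replicate 2. Fabp1 read 7.11, 7.92 and 5.63 at P7 and -0.53, 0.06 and 2.88 in adults, Ambp 3.53, 7.45 and 4.70 at P7, and Igfbp1 4.09, 7.13 and 4.75 at P7.

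Xist, which is transcribed from the inactive X chromosome of females, read 1.41, 1.46 and 1.01 at P7 and was not well above background on any adult array. The Y-linked genes Eif2s3y, Ddx3y and Kdm5d were not well above background at P7 and changed by 6.08, 2.74 and 2.58 to levels well above it in adults. Sex is not in the labels, and on these markers it cannot be told apart from age.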
